A study of Mus musculus with 4 samples.

Results

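The Wnt genes of the mouse dentate gyrus were examined 4 h after electroconvulsive stimulation (ECS), a seizure-inducing electrical stimulus, and 4 h after sham handling. Members were all genes of the deposited annotation whose symbols named a Wnt ligand, a Frizzled or Lrp receptor, a secreted antagonist, a cytoplasmic effector or a TCF/LEF transcription factor. Of 54 such genes, 48 had at least 1 probeset and could be measured, out of 18010 measured genes in all: 19 ligands, 6 of 12 receptors, 10 antagonists, 9 effectors and 4 transcription factors. The other 6, Fzd1, Fzd2, Fzd7, Fzd8, Fzd9 and Fzd10, are listed at 0 with no probeset and were not analysed here. The ECS group, ECS A and ECS B, and the sham group, sham A and sham B, each had 2 exon arrays of microdissected dentate gyrus from wild-type C57/Black6 male mice aged 8 weeks. The stimulus was a train of 1.0 s at 100 Hz, with pulses of 18 mA and 0.3 ms. Replicates are labelled biological, and the number of animals behind an array is not given in the labels. Values are log2 expression, the mean over a gene's probesets, and differences are ECS minus sham.

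Wnt proteins are secreted, lipid-modified ligands that bind Frizzled receptors together with the coreceptors Lrp5 or Lrp6. In the canonical branch the receptors act through Dishevelled on a complex of Axin, Apc and kinases that otherwise marks beta-catenin for degradation, and stabilised beta-catenin then acts with TCF/LEF factors on target genes. Secreted Frizzled-related proteins, Wif1 and Dickkopf proteins hold the ligands or the coreceptors back. In the dentate gyrus the pathway is known for its part in adult neurogenesis and in synapse formation.

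No member passed the threshold of an adjusted p under 0.05 in limma, in either direction. Over all genes 90, or 0.5%, were called higher and 35, or 0.194%, lower. At an unadjusted p under 0.05, 3 members (6.25%) were higher and 6 (12.5%) were lower, against 6.39% and 10.5% of all genes, so these shares lay near the background. The 3 higher members were Sfrp4, Wif1 and Nkd1, and the 6 lower ones Wnt9a, Frzb, Wnt16, Wnt8b, Nkd2 and Wnt5a. The lowest adjusted p among the members was 0.0951, that of Wnt9a. The median difference of the members was -0.03, against -0.04 over all genes, and 70.8% of members lay within 0.25 of zero, against 77.1% of all genes. In 9 members (18.8%) both ECS arrays were above both sham arrays and in 9 (18.8%) both were below, against 18.7% and 30.7% of all genes. With each array centred on its median these counts became 14 above and 7 below, against 28.8% and 20.3% of all genes, and those at an unadjusted p under 0.05 became 4 higher and 4 lower, against 10.7% and 6.2%.

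**Figure D1:**
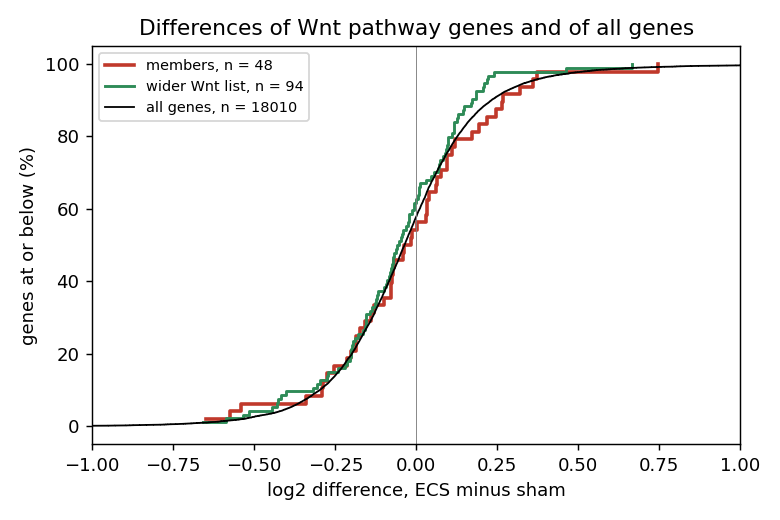
Cumulative share of genes (vertical axis, %) by log2 difference, ECS minus sham (horizontal axis), for the 48 members, the 94 measured genes of a wider Wnt list and all 18010 genes. The 3 curves run close together around zero, with medians of -0.03, -0.06 and -0.04.

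**Figure D2:**
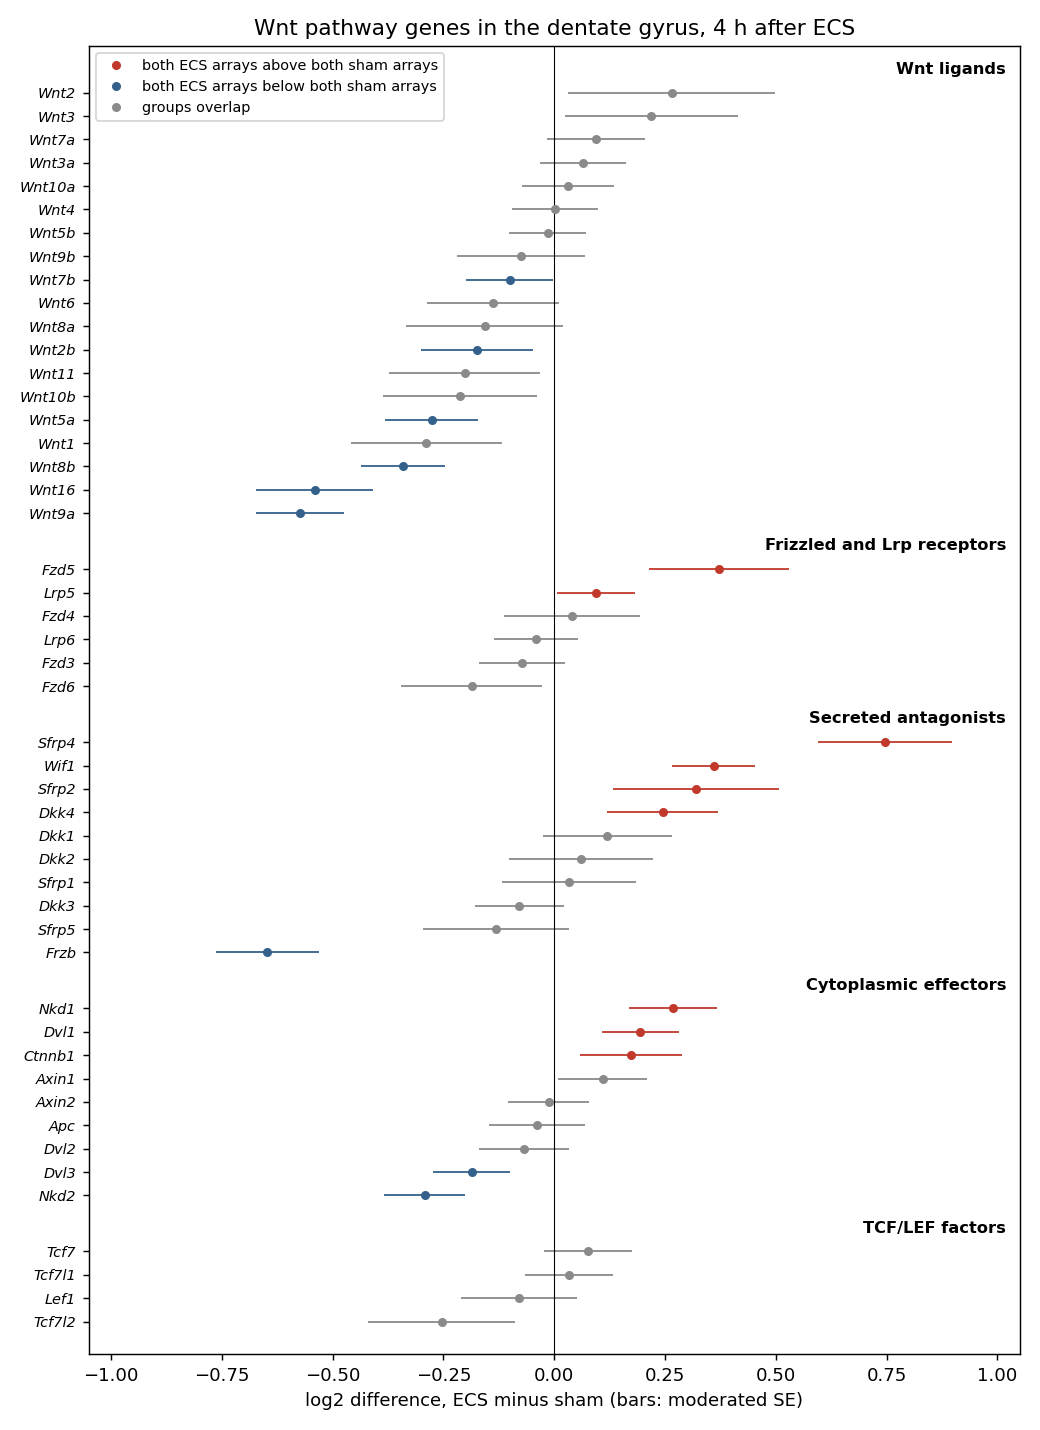
Log2 difference, ECS minus sham (horizontal axis), of each of the 48 members, grouped by role; bars are moderated SE from 2 arrays per group. Sfrp4 at 0.75 and Frzb at -0.65 are the outermost points, both among the secreted antagonists. The groups overlap in 30 members. Both ECS arrays were above both sham arrays in 18.8% of members and below in 18.8%, against 18.7% and 30.7% of all genes.

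Across genes, the correlation of the 2 ECS arrays was r = 0.993, as was that of the 2 sham arrays. Of 10 granule cell markers 9 were measured, and 2 of them, Tdo2 (-2.86) and Dsp (-1.37), were called lower. With these 2 included, the mean log2 level was 8.24 and 8.33 on the ECS arrays, against 8.82 and 8.95 on the sham arrays. Both ECS arrays were below both sham arrays in 5 of the 9 and above in 2, Prox1 and Npnt, against 30.7% and 18.7% of all genes. The groups of C1ql2 (-0.08) and Maml2 (0.18) overlapped. The sham B array stood apart. All 10 choroid plexus markers were highest on it. Their summed signal was 564.3 to 677.9 on the ECS arrays and 676.3 on sham A, against 2272.6 on sham B. The choroid plexus gene Ttr read 6.55 on ECS A and 5.90 on ECS B, against 6.12 on sham A and 10.16 on sham B. Of 8 meninges markers, 7 were highest on sham B. The mean log2 level of the 8 was 7.60 and 7.64 on the ECS arrays, against 7.54 on sham A and 8.14 on sham B. Their summed signal was 2083.6 and 2991.1 on the ECS arrays, against 2024.5 and 3182.2 on the sham arrays. The 5 blood markers gave 3 distinct measurements, since a pair of alpha-globin and a pair of beta-globin genes share all their probesets. All 3 were higher on both ECS arrays, with summed signals of 6961.9 and 5791.4 on the ECS arrays against 2932 and 4553.2 on the sham arrays, each shared value counted once. The part of these tissues in the values of single members was not tested, and the differences without sham B are given below for the members with the largest ones. In such bulk samples fewer cells of a type and less RNA per cell cannot be told apart.

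The promoters of the 3 members with the largest negative differences are shown first, since Frzb, Wnt9a and Wnt16 were the members at least 0.5 lower on the log2 scale. Each runs 5′ to 3′ from 250 bases before to 50 after the start of transcription, from RefSeq on GRCm38.p6, and is written in the direction of transcription. Capitals mark the core of the TCF/LEF motif, CTTTGA on either strand.
Frzb, chr2:80447347-80447646, minus strand: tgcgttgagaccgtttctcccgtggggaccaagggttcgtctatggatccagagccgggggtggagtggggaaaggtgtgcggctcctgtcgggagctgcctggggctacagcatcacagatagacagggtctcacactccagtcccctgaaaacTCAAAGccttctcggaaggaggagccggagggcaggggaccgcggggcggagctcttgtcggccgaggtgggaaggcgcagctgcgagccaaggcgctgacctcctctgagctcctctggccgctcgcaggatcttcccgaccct
Wnt9a, chr11:59306680-59306979, plus strand: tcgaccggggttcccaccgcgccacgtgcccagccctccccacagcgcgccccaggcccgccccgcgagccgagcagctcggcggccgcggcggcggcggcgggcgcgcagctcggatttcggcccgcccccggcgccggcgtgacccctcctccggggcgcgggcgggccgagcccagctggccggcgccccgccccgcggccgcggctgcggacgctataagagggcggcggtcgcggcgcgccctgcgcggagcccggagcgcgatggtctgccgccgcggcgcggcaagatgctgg
Wnt16, chr6:22287977-22288276, plus strand: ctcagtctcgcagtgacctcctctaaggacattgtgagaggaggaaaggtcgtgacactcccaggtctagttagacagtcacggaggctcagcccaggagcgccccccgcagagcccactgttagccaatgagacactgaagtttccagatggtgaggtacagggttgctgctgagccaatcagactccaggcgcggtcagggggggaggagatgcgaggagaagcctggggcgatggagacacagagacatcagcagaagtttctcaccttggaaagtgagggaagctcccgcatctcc
The Frzb window held 1 match to the TCF/LEF core, on the minus strand of the gene, beginning 95 bases before the start, and the other windows held none; 16% of 32851 promoters of the same length hold this motif. The letters of the cyclic AMP response element TGACGTCA (in 1.79% of all promoters), of its first part TGACG (20.8%) and of the AP-1 motif TGANTCA (7.81%), searched on both strands with overlaps allowed, were not in these 3 windows. Of the 48 members, 34 had a promoter in the table, and 5 of these 34 held the TCF/LEF core in at least 1 of their windows. The Wnt9a window had a GC content of 83.3%, the Frzb window 64.7% and the Wnt16 window 58%. A match in these windows is a description of letters and shows no binding.

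Of the 19 ligands none passed. Among them 6 had a positive and 13 a negative difference, with a median of -0.14, against -0.04 over all genes. The signs over all genes were not counted, nor were the ligands with arrays centred on their medians, so the lean to negative was not compared with a background. Both ECS arrays were below both sham arrays in 6 ligands (31.6%) and above in none, against 30.7% and 18.7% of all genes, so the share below lay at the background. Wnt9a, a ligand known from joint development, read 6.03 on ECS A and 5.91 on ECS B, against 6.60 on sham A and 6.49 on sham B, with no overlap of the groups. Its difference was -0.57 ± 0.10 (SE, adjusted p = 0.0951), or 1.49-fold lower, and -0.62 without sham B. Wnt16, a ligand known for its part in bone, read 5.54 on ECS A and 5.32 on ECS B, against 6.09 on sham A and 5.85 on sham B. All ECS values of Wnt16 lay under the sham values, by a difference of -0.54 ± 0.13 (SE, adjusted p = 0.157), which was -0.66 without sham B. Wnt8b, a ligand known from the developing hippocampus and cortical hem, read 4.62 on ECS A and 4.69 on ECS B, against 4.94 on sham A and 5.05 on sham B, a difference of -0.34 ± 0.10 (SE, adjusted p = 0.19). Wnt5a, which mostly signals outside the beta-catenin branch, read 7.44 on ECS A and 7.42 on ECS B, against 7.61 on sham A and 7.80 on sham B, a difference of -0.28 ± 0.10 (SE, adjusted p = 0.284). The sham arrays of Wnt5a differed from each other more than its ECS arrays did, and without sham B the difference was -0.18.

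For Wnt3, Wnt2, Wnt7a and Wnt4 the difference between the groups was smaller than the gap between the arrays of at least 1 group. Wnt3, reported to be released by hippocampal astrocytes, read 5.56 on ECS A and 5.45 on ECS B, against 5.56 on sham A and 5.01 on sham B. For Wnt3, sham A lay at the ECS level and sham B below it, and the difference was 0.22 ± 0.20 (SE, adjusted p = 0.621). Wnt2 had the largest positive difference among the ligands, 0.27 ± 0.23 (SE, adjusted p = 0.615), and showed the same arrangement: it read 5.98 on ECS A and 6.11 on ECS B, against 6.13 on sham A and 5.44 on sham B. Without sham B its difference was -0.08. Wnt7a, a ligand acting in synapse formation, had 0.09 ± 0.11 and Wnt4 0.00 ± 0.10 (SE), the smallest absolute difference among ligands.

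Wnt1 read 4.55 on ECS A and 4.85 on ECS B, against 5.17 on sham A and 4.80 on sham B, with overlapping groups and a difference of -0.29 ± 0.17 (SE, adjusted p = 0.447). It was -0.14 without ECS A, -0.44 without ECS B, -0.10 without sham A and -0.47 without sham B. Among the ligands not yet named, Wnt2b (-0.17) and Wnt7b (-0.10) were lower on both ECS arrays, while the groups of Wnt10b (-0.21), Wnt11 (-0.20), Wnt8a (-0.16), Wnt6 (-0.14), Wnt9b (-0.07), Wnt5b (-0.01), Wnt10a (0.03) and Wnt3a (0.07) overlapped. The Wnt7b value is that of a transcript with 4 probesets. Wnt7b transcripts with 5 and 7 probesets had -0.20 and -0.28. With 5 probesets the groups overlapped, at 6.97 and 7.30 on the ECS arrays, against 7.41 and 7.24 on the sham arrays. With 7 probesets they did not. Of the ligand genes, 4 pairs lie next to each other in the genome. Wnt9a had -0.57 and its neighbour Wnt3a 0.07. Both genes of the pair Wnt1 and Wnt10b had negative differences, -0.29 and -0.21. Wnt9b and Wnt3 had -0.07 and 0.22, and Wnt6 and Wnt10a -0.14 and 0.03.

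**Figure D3:**
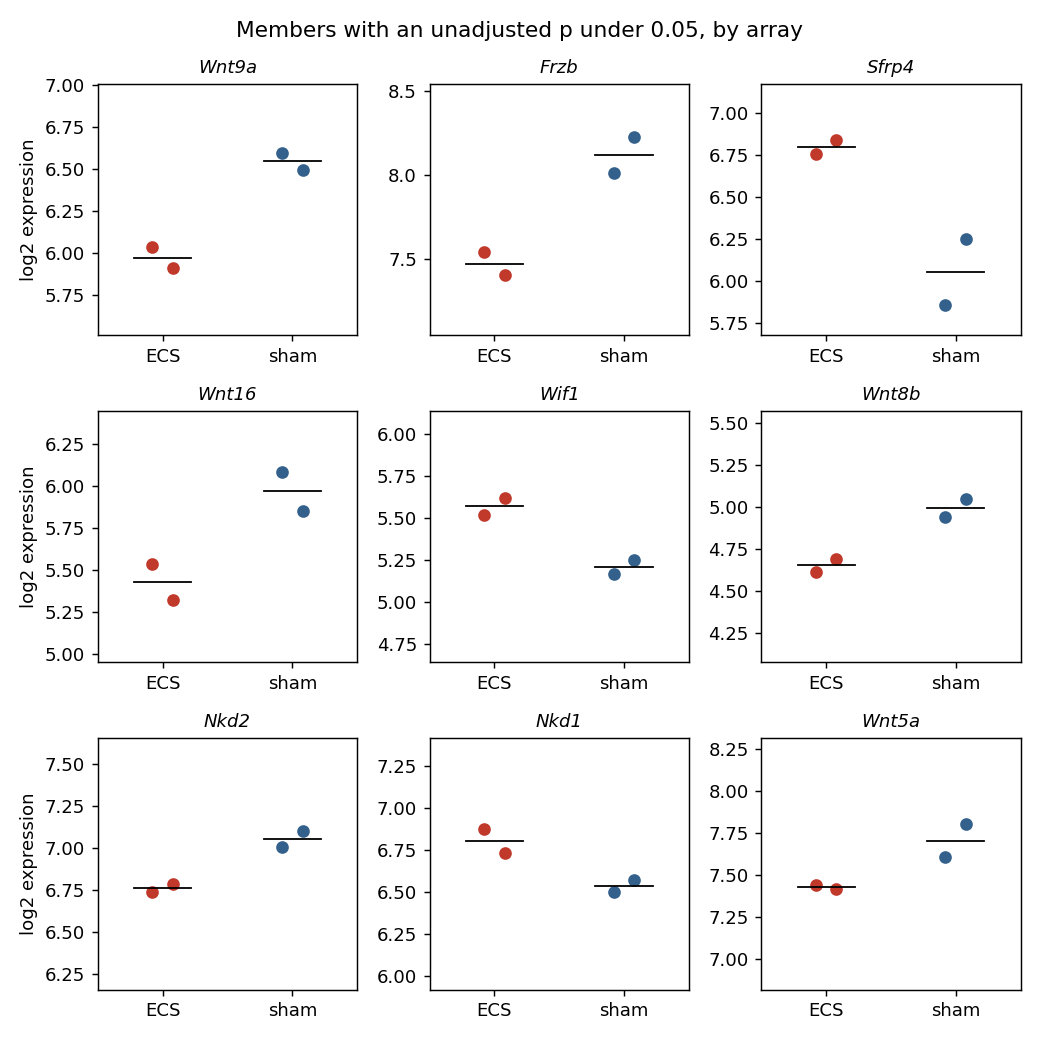
Log2 expression on each array (points) and group means (lines) for the 9 members with an unadjusted p under 0.05; every panel spans the same range of 1.5 log2 units, with ECS left of sham. In all 9 the groups do not overlap, which their choice by p on these same arrays makes likely. Over all genes, both ECS arrays were above both sham arrays in 18.7% and below in 30.7%. The sham arrays of Sfrp4, at 5.86 and 6.25, lie furthest apart.

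None of the 6 measured receptors passed. Fzd5, a Frizzled receptor, had the largest difference: it read 7.13 on ECS A and 7.56 on ECS B, against 6.99 on sham A and 6.96 on sham B, and the difference was 0.37 ± 0.16 (SE, adjusted p = 0.32). Both ECS arrays of Fzd5 lay above the sham arrays, but the ECS arrays were themselves apart by more than the difference between groups, and without ECS B it was 0.16. The coreceptor gene Lrp5 was also higher on both ECS arrays, by 0.10 ± 0.09 (SE, adjusted p = 0.632). The coreceptor gene Lrp6 had -0.04 and the axon guidance receptor gene Fzd3 -0.07, both with overlapping groups. Fzd6 had the largest negative difference among receptors, -0.19 ± 0.16 (SE, adjusted p = 0.604), and read 7.15 on ECS A and 6.84 on ECS B, against 7.03 on sham A and 7.33 on sham B. Its groups overlapped, and the difference was -0.033 without sham B and likewise -0.033 without ECS B. Fzd4, known as the receptor of norrin in blood vessels, had 0.04 ± 0.15 (SE).

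Among the 10 secreted antagonists, 7 had a positive and 3 a negative difference, with a median of 0.09, against -0.04 over all genes. The signs over all genes were not counted. Both ECS arrays were above both sham arrays in 4 (40%) and below in 1 (10%), against 18.7% and 30.7% of all genes. With arrays centred on their medians the shares of all genes were 28.8% and 20.3%, but the antagonists were not counted on that scale. Of the 4 above, Wif1, Dkk4 and Sfrp2 were among the dimmest 25% of genes, and Sfrp4 was not. Frzb, which encodes the secreted Frizzled-related protein sFRP3, known as an inhibitor of adult neurogenesis made by dentate granule cells, read 7.54 on ECS A and 7.40 on ECS B, against 8.01 on sham A and 8.22 on sham B. The ECS arrays of Frzb were both below the sham arrays. It averaged 7.47 ± 0.10 on the ECS arrays and 8.12 ± 0.15 on the sham arrays (SD, n = 2 arrays each). The difference was -0.65 ± 0.12 (SE, adjusted p = 0.0996 in limma), or 1.57-fold lower. Without sham B the difference was -0.54. The mean level of the 9 granule cell markers was also lower on both ECS arrays, with the largest differences in Tdo2 and Dsp. The median difference of the 9 was -0.28, and a mean without Tdo2 and Dsp was not computed. Prox1, the transcription factor gene that defines granule cells, had 0.22 ± 0.09 (SE). The part of these cells in the Frzb value was not tested. All 10 Frzb probesets had a negative difference, between -1.24 and -0.05, and in 8 of them both ECS arrays were below both sham arrays. The probeset with the largest negative difference read 3.69 and 3.96 on the ECS arrays, against 5.03 and 5.10 on the sham arrays, and the one nearest zero 5.60 and 6.14 on the ECS arrays, against 5.60 and 6.24 on the sham arrays. Frzb was called lower, at an adjusted p of 0.0448 in limma, when the dimmest 25% of genes were left out, and at 0.0282 with trend and robust eBayes, fits in which 216 and 352 of all genes were called lower, against 35. Over all settings its adjusted p ranged from 0.0282 to 0.314, with 0.222 under the replicate block and 0.18 to 0.314 with 1 array left out. Wnt9a was called at 0.0415 without the dimmest genes, and its adjusted p ranged from 0.0415 to 0.314 over all settings.

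Sfrp4, another secreted Frizzled-related protein gene, had the largest difference of all members. It read 6.76 on ECS A and 6.84 on ECS B, against 5.86 on sham A and 6.25 on sham B. The mean was 6.80 ± 0.06 on the ECS arrays and 6.05 ± 0.28 on the sham arrays (SD, n = 2 arrays each). Both ECS arrays were higher, by 0.75 ± 0.15 (SE, adjusted p = 0.119), or 1.68-fold, and the sham arrays were further apart than the ECS arrays; without sham A the difference was 0.55 and without sham B 0.94. All 6 Sfrp4 probesets had a positive difference, between 0.12 and 1.37, and in 4 of them the groups did not overlap. The Sfrp4 probeset with the largest positive difference read 6.66 and 7.07 on the ECS arrays, against 5.14 and 5.84 on the sham arrays. The direction was less uniform over the probesets of Wnt9a, with 3 of 4 negative and 2 without overlap, and of Wnt16, with 5 of 6 negative and 3 without overlap. Probesets of a gene share the RNA sample and are no replicates. For these 3 genes and Frzb alike, the share of all probesets without overlap was not counted.

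**Figure D4:**
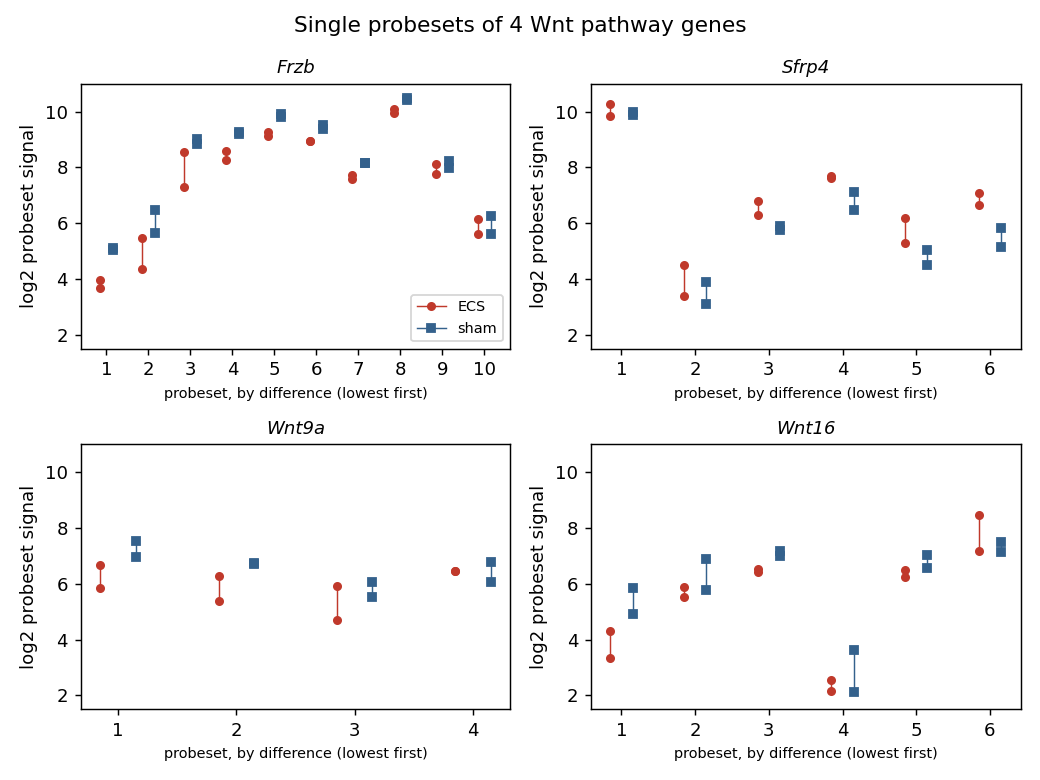
Log2 signal of each probeset of Frzb, Sfrp4, Wnt9a and Wnt16 on the 2 ECS arrays (circles) and the 2 sham arrays (squares), ordered along the horizontal axis by the difference, ECS minus sham. All 10 Frzb probesets have a negative and all 6 Sfrp4 probesets a positive mean difference, while Wnt9a and Wnt16 each hold 1 probeset with a positive one.

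Wif1, the gene of a secreted protein that binds Wnt ligands, read 5.52 on ECS A and 5.62 on ECS B, against 5.17 on sham A and 5.25 on sham B. The groups of Wif1 did not overlap and differed by 0.36 ± 0.09 (SE, adjusted p = 0.174); 8 of its 9 probesets had a positive difference. Dkk4, a Dickkopf gene, read 5.41 on ECS A and 5.34 on ECS B, against 5.27 on sham A and 4.99 on sham B, a difference of 0.25 ± 0.13 (SE, adjusted p = 0.39), which was 0.39 without sham A and 0.10 without sham B. Sfrp2 read 4.32 on ECS A and 4.85 on ECS B, against 4.23 on sham A and 4.30 on sham B, where ECS B alone was far above the sham arrays; the difference was 0.32 ± 0.19 (SE, adjusted p = 0.445), and 0.05 without ECS B. The Dickkopf genes Dkk1 (0.12), Dkk2 (0.06) and Dkk3 (-0.08) and the genes Sfrp1 (0.03) and Sfrp5 (-0.13, from 2 probesets) had overlapping groups. Sfrp1 read 6.38 on ECS A and 6.40 on ECS B, against 6.16 on sham A and 6.56 on sham B. Sfrp1 and Sfrp5 were both highest on sham B, as were 15 of the 48 members in all, while 16 were highest on sham A. The share of all genes highest on each array was not counted, so these counts were not compared with a background. Sham B also had the highest array median, 7.35, against 7.20 to 7.26 for the other arrays.

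Of the 9 cytoplasmic effectors none passed, and the Nkd and Dvl families each held members with differences of opposite sign. Nkd1 and Nkd2 encode Naked cuticle proteins, which bind Dishevelled and dampen Wnt signals. Nkd1 read 6.87 on ECS A and 6.73 on ECS B, against 6.50 on sham A and 6.57 on sham B, a difference of 0.27 ± 0.10 (SE, adjusted p = 0.276), with 13 of 14 probesets positive. Nkd2 read 6.73 on ECS A and 6.78 on ECS B, against 7.00 on sham A and 7.10 on sham B, a difference of -0.29 ± 0.09 (SE, adjusted p = 0.22), with 8 of 10 probesets negative. Neither gene's groups overlapped. The Dishevelled genes split likewise, with Dvl1 higher and Dvl3 lower on both ECS arrays. Dvl1 read 8.52 on ECS A and 8.54 on ECS B, against 8.31 on sham A and 8.37 on sham B, a difference of 0.19 ± 0.09 (SE, adjusted p = 0.34). Dvl3 read 8.39 on ECS A and 8.39 on ECS B, against 8.60 on sham A and 8.56 on sham B, a difference of -0.19 ± 0.09 (SE, adjusted p = 0.352). In 14 of 21 Dvl1 probesets both ECS arrays were above, and in 10 of 18 Dvl3 probesets both were below, the sham arrays. The share over all probesets was not counted, and probesets of a gene are no replicates, so these counts add no support to the split. Dvl2 had -0.07 with overlapping groups. The difference between the members of these pairs was not tested.

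Ctnnb1, the gene of beta-catenin, read 10.60 on ECS A and 10.61 on ECS B, against 10.31 on sham A and 10.56 on sham B. Its ECS arrays lay just above sham B and further above sham A, by 0.17 ± 0.11 (SE, adjusted p = 0.495) in the mean. The scaffold genes of the degradation complex, Axin1 (0.11 ± 0.10) and Apc (-0.04 ± 0.11, SE), had overlapping groups. Axin2, a widely used target gene of beta-catenin signalling that encodes a feedback inhibitor, read 7.58 on ECS A and 7.58 on ECS B, against 7.54 on sham A and 7.65 on sham B. The Axin2 values of the groups overlapped, and the difference was -0.01 ± 0.09 (SE, adjusted p = 0.963), the smallest among effectors; it was 0.05 after quantile normalization and 0.06 with arrays centred on their medians.

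The 4 TCF/LEF transcription factor genes all had overlapping groups. Tcf7l2 had the largest absolute difference, -0.25 ± 0.17 (SE, adjusted p = 0.489), and read 6.21 on ECS A and 6.07 on ECS B, against 6.17 on sham A and 6.61 on sham B. Only sham B stood high for Tcf7l2, and without sham B the difference was -0.04. A second set of Tcf7l2 transcripts, with 21 in place of 19 probesets, had -0.28. Tcf7 had 0.08, Tcf7l1 0.03 and Lef1, itself a known target gene of the pathway, -0.08, with SE of 0.10, 0.10 and 0.13.

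A wider list of 96 further genes covered Wnt secretion, R-spondins and their receptors, kinases of the degradation complex, corepressors, planar cell polarity and known targets; 94 were measured. None passed in limma in either direction. At an unadjusted p under 0.05, 1 gene (1.06%) was higher and 11 (11.7%) were lower, against 6.39% and 10.5% of all genes; with arrays centred on their medians these counts became 9 and 6, against 10.7% and 6.2%. Their median difference was -0.06, against -0.04 over all genes. Both ECS arrays were below both sham arrays in 39 genes of the list (41.5%) and above in 14 (14.9%), against 30.7% and 18.7% of all genes; with arrays centred on their medians 23 (24.5%) were below and 24 (25.5%) above, against 20.3% and 28.8%. Vangl2, a core gene of planar cell polarity, had the largest negative difference and the lowest adjusted p of the list. It read 6.51 on ECS A and 6.54 on ECS B, against 7.17 on sham A and 7.20 on sham B, a difference of -0.66 ± 0.09 (SE, adjusted p = 0.0592), or 1.58-fold lower. The groups of Vangl2 were far apart relative to the gaps within them. Rspo3, the gene of an R-spondin that strengthens Wnt signals, read 7.29 on ECS A and 7.38 on ECS B, against 7.80 on sham A and 7.95 on sham B, a difference of -0.54 ± 0.10 (SE, adjusted p = 0.104). Ascl2, a Wnt target of intestinal stem cells, had -0.59 ± 0.18 (SE, adjusted p = 0.209).

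The largest positive differences of the list were those of Sost, Tle3 and Fbxw11. Sost, an antagonist known from bone and measured here by 1 probeset, had 0.66 ± 0.27 (SE, adjusted p = 0.304). Tle3, a Groucho-type corepressor of TCF/LEF factors, read 7.48 on ECS A and 7.31 on ECS B, against 6.96 on sham A and 6.90 on sham B, a difference of 0.46 ± 0.10 (SE, adjusted p = 0.139). Fbxw11, a ubiquitin ligase subunit that recognises beta-catenin, had 0.24 ± 0.11 (SE, adjusted p = 0.333). Vangl2 and Rspo3 were called lower without the dimmest 25% of genes, at adjusted p of 0.022 and 0.0479, and with trend and robust eBayes, at 0.0246 and 0.0392. Tnfrsf19, a receptor gene known as a beta-catenin target and named here after its values were seen, had -0.43 and was called with trend and robust eBayes alone, at 0.0257. Over all settings the adjusted p ranged from 0.022 to 0.211 for Vangl2, from 0.0392 to 0.296 for Rspo3 and from 0.0257 to 0.335 for Tnfrsf19. The other 7 genes of the list at an unadjusted p under 0.05, also named after their values were seen, were all lower. They were Ror1 (-0.52), a receptor gene of Wnt5a, Lgr4 (-0.43), an R-spondin receptor gene, Trabd2b (-0.40), the gene of a protease that inactivates Wnt ligands, Dact1 (-0.32), the gene of a Dishevelled-binding protein, Cby1 (-0.31), the gene of a beta-catenin antagonist, and the planar cell polarity genes Ptk7 (-0.28) and Celsr2 (-0.24), with adjusted p between 0.169 and 0.285 in limma.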

How the data were processed

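The members and lists were chosen with earlier results of these data known. The authors deposited log2 values per RefSeq transcript and per probeset; per the submitters' processing notes RMA and oligo were used, and the genome build is not given in the sources used here. Random primers amplified RNA depleted of ribosomal RNA (1 µg total), per the labels' protocols. Every transcript value equalled the mean of its deposited log2 probeset values within 5e-09. This check paired columns named for 0 h with the sham samples, A with replicate 1 and B with replicate 2. The number of probesets of a transcript, a deposited annotation, was used to leave out 3621 rows with none.

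The row with the highest mean stood for a gene. RefSeq IDs (24932 of 25635 matched) gave current symbols; members followed the deposited ones. ECS was set against sham with limma 3.58.1 in R 4.3.3 (two-sided, no filter or block), with Benjamini-Hochberg adjustment over 18010 genes, and tested on simulated data. The number of arrays, with 2 residual degrees of freedom and 3.23 prior ones, limits the precision. P-values measure only the spread between these arrays. An exact permutation of 2 against 2 arrays cannot go below 0.333. Members were named by a rule: an unadjusted p under 0.05, a difference of at least 0.5, the 15 smallest p and, per role, the largest increase, largest decrease and smallest difference; all others are given by value. Of the wider list, called genes and the 3 largest changes each way were named. No sequence of Sfrp4 was used here.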

Additional observations from a re-analysis of the deposited data

How the results depend on the processing

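Cyclic loess and a crossed pairing were chosen after seeing the data. The whole table had 90 genes called higher and 35 lower in limma. With replicate number as a replicate block the counts were 26 and 6, with trend and robust eBayes 365 and 352, with the dimmest 25% of genes removed 242 and 216, and at a looser adjusted p of 0.10 they were 219 and 180; median centring left 18 lower. Fits without 1 array called 0 to 5 higher and 0 to 2 lower, taking the lone array to vary as the other group does. Of the members, against 0 called lower, 2 of the 39 kept were called without the dimmest genes. With trend and robust eBayes 1 of 48 was called, and at an adjusted p under 0.10 2 of 48 (Wnt9a and Frzb). Of the wider list these counts were 2, 3 and 1. Over all genes they were 216, 352 and 180, the first out of fewer than the 18010 genes of the others. No member was called higher in any of these fits. At an unadjusted p under 0.05, 5 members were higher after cyclic loess, and 2 to 4 were higher and 3 to 8 lower with 1 array left out. Members with both ECS arrays above the sham arrays numbered 14 after quantile normalization or median centring and 15 after cyclic loess. After median centring these were 29.2% of members, against 28.8% of all genes, so this share lay at the background. With 1 array left out, where fewer arrays make overlap rarer, 12 to 19 members were above and 15 to 20 below. For quantile normalization, cyclic loess and fits without 1 array, shares of all genes were not counted, here or at an unadjusted p under 0.05. Those counts were thus not compared with a background. Of 24 named members, those whose difference changed sign were all uncalled: Axin2 had 0.052 after quantile normalization, 0.060 after median centring, 0.061 after cyclic loess and -0.065 to 0.040 with 1 array left out. With 1 array left out, Wnt2 ranged from -0.079 to 0.61, Wnt4 from -0.072 to 0.076, Fzd4 from -0.11 to 0.19, Sfrp1 from -0.17 to 0.24 and Tcf7l1 from -0.049 to 0.12. Tcf7 kept its sign but ranged from 0.0073 to 0.15. Of 307 results over named members and settings, 293 kept direction and side of the threshold, 3 gained a call (Frzb in both fits, Wnt9a in one) and 11 changed sign; beyond fewer genes tested or fewer arrays, the cause was not tested. Deviations of arrays with the same number correlated at -0.203 across genes, so the numbers were not taken to pair the samples, and a crossed pairing called 106 higher and 48 lower genes and 0 members. Means recomputed from probesets, those of 1 gene only included, and the mean of a gene's rows kept both counts of all genes within 1.5 times. Of the 48 members 9 were among the dimmest genes, with Wif1, Wnt8b, Dkk4, Sfrp2 and Wnt1 among the 9. How far a signal lay above background is unknown, which matters most for these.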
